A study of Mus musculus with 8 samples.

Results

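The comparison described here asks which liver genes responded to refeeding differently in mice with and without hepatic HRD1. It used all 8 of the 8 libraries of the series, in 1 model with 4 groups, and took for each gene the difference between the response to refeeding in knockout liver and the response in WT liver. This difference, the interaction, is positive where refeeding moved a gene further up (or less far down) in knockout than in WT liver, and negative in the opposite case. On the log2 scale used below, an interaction of 1 is a 2-fold difference between the responses.

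HRD1, encoded by Syvn1, is a ubiquitin ligase in the membrane of the endoplasmic reticulum (ER) that marks misfolded proteins and selected normal ones for degradation by the proteasome. When proteins accumulate in the ER, the sensors IRE1, ATF6 and PERK raise chaperone synthesis, and PERK, through the transcription factor ATF4, induces a programme that includes CHOP, the product of Ddit3. Liver passes from fasting to feeding by shutting off gluconeogenesis and fatty acid oxidation, switching on lipogenesis and protein secretion and resetting its clock genes, so feeding also raises the load on the ER.

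All mice were C57BL/6, 12 weeks old, and total liver RNA was isolated to prepare the sequenced cDNA. WT-Fasted and KO-Fasted livers (2 libraries each) were taken after an overnight fast, and WT-Refed and KO-Refed livers (2 libraries each) after an overnight fast and 4 h of refeeding. KO is the genotype written Hrd1-/- in the labels; the study made it with a floxed HRD1 gene and Cre under the albumin promoter, so hepatocytes, and not every liver cell, are expected to lose the gene. The labels do not state that each library came from its own mouse, so p-values measure the spread between these libraries only. All libraries carried Y-linked transcripts and at most 26 counts of Xist. The 8 hepatocyte markers (Alb, Ttr, Cps1 and others) were all measured and summed to 65082 to 149116 CPM (counts scaled to a fixed library size and normalised between libraries by edgeR's TMM method), against 72.8 to 411 CPM for the Kupffer cell markers. In bulk RNA, fewer cells of a type and less RNA per cell cannot be told apart.

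Total counts per library were 40210576 to 49117080, and 14328 of 23337 genes passed the filter on low counts and were tested. Counts of the targeted gene, Syvn1, were 111 and 99.8 CPM in WT-Fasted, 32.6 and 31.5 in KO-Fasted, 637 and 305 in WT-Refed, and 453 and 132 in KO-Refed liver. The fasted groups were separated, but the refed groups overlapped, with the KO-Refed 1 library above WT-Refed 2. These are counts over the whole gene, which cannot separate the deleted part from the rest, so they do not test the deletion itself, and the interaction of Syvn1 was 1.03 (standard error, SE, 0.77, edgeR adjusted p = 0.658).

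The KO-Refed libraries differed from each other more than those of any other group. Spearman's rho between them across genes was 0.955, against 0.990 to 0.995 in the other groups, and 3204 genes lay at least 2-fold apart, against 424 to 1141. The difference ran with transcript length. Each library was compared with the mean of the libraries of the other groups. In KO-Refed 2, genes with a longest transcript of 0.5 to 1 kb lay a median 1.15 log2 units above that mean. Genes over 8 kb lay 0.94 below it, whereas in KO-Refed 1 the medians were 0.09 and -0.10. The median interaction was 0.61 for genes of 0.5 to 1 kb and -0.41 for genes over 8 kb. The interaction contrast contains this group, so the 5 genes described first and the counts of 7 lists (ATF4 and CHOP, ER chaperones, histones, ribosomal proteins, clock, lipogenesis and gluconeogenesis) are also given without each KO-Refed library. The part of transcript length in the other results was not tested.

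**Figure D1:**
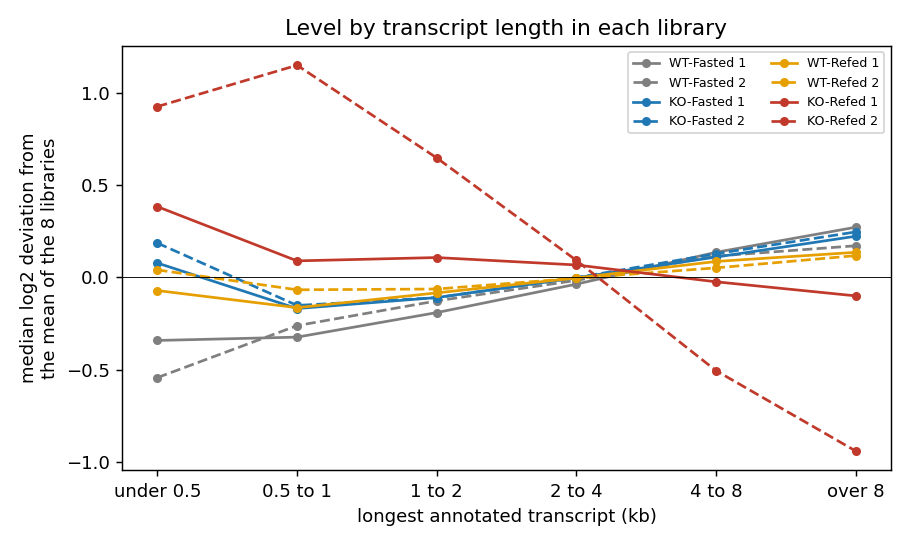
Median log2 deviation of each library from the mean of the libraries of the other groups (y axis, log2 units). Tested genes are grouped by the length of their longest annotated transcript (x axis, kb). The axis title names the 8 libraries, but a library's own group is left out of the mean. Solid lines are replicate 1 and dashed lines replicate 2. KO-Refed 2 runs from 1.15 at 0.5 to 1 kb to -0.94 over 8 kb, while the other 7 libraries lie between -0.54 and 0.38.

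With all 8 libraries, no gene passed an adjusted p of 0.05 in either direction by edgeR's quasi-likelihood test (0 of 14328, 0%). At an unadjusted p under 0.05, 632 genes were positive (4.41%) and 577 negative (4.03%), and the smallest adjusted p was 0.116, shared by Hist1h1c and Ddit3. DESeq2's Wald test on the same libraries called 48 positive (0.335%) and 43 negative genes (0.3%), and edgeR without the filter on low counts called 2 genes, Ddit3 and Hist1h1c (adjusted p = 0.0419). Leaving out KO-Refed 2 gave 67 positive and 34 negative genes, and leaving out KO-Refed 1, which keeps the library with the length trend as the only one of its group, gave 2249 and 2629. In these last fits, the single KO-Refed library is assumed to vary like the other groups. An adjusted p above the threshold does not show that the genotypes responded alike.

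For description, the genes with an interaction of at least 2-fold in size and an unadjusted p under 0.05 were taken as a set: 313 positive genes (2.18%) and 329 negative genes (2.3%). Each gene of this set was assigned to the group that stood apart, meaning that the other 3 group means spanned at most 0.5 of the full range. KO-Refed stood apart in 136 of the 313 positive genes (43.5%), always as the highest group, and in 124 of the 329 negative genes (37.7%), always as the lowest. Over all tested genes it stood apart in 24.7% of those with a positive and 32.6% of those with a negative interaction. WT-Refed was the next most frequent among positive genes, with 63 genes (20.1%), and stood apart in 39 negative genes (11.9%), against 8.78% and 8.36% over all tested genes. WT-Fasted and KO-Fasted stood apart in 9 and 8 positive and in 31 and 31 negative genes, and no single group did in 97 and 104. The responses in WT and KO had opposite signs in 191 of the positive genes (61%) and 204 of the negative (62%), against 32% and 32.3% of all tested genes with a positive and a negative interaction. Responses of single libraries are here all refed minus fasted differences in log2 CPM between libraries of a genotype. The libraries are not paired, and the differences share libraries. In all, the KO responses of single libraries lay wholly above the WT responses in 2034 of 14328 genes (14.2%) and wholly below them in 2104 (14.7%). These assignments use the values that selected the genes and are a description. Without KO-Refed 1 the same 2-fold rule picked far more of all tested genes in both directions, as the closing section gives. List counts of that fit are therefore not to be set against the shares above.

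**Figure D2:**
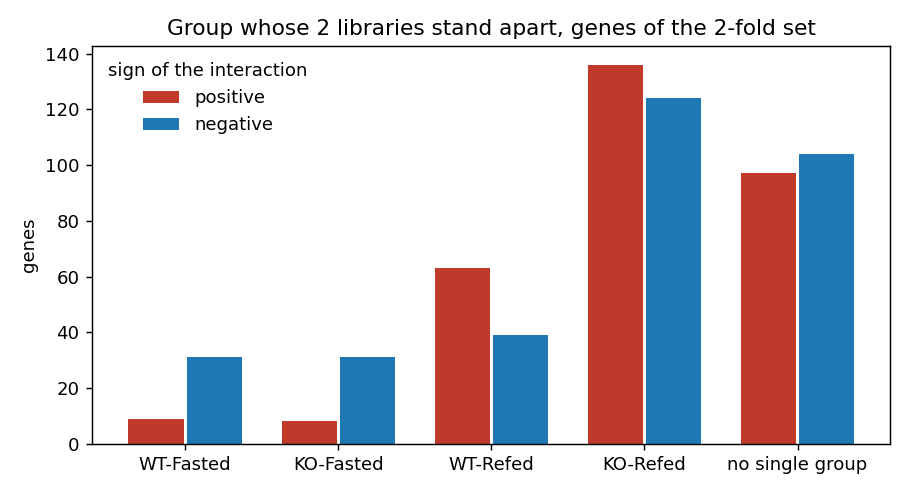
Number of genes (y axis) by the group whose mean stood apart from the other 3 (x axis), for the positive (red) and negative (blue) genes of the 2-fold set. KO-Refed leads in both directions, with 136 positive and 124 negative genes, and WT-Refed follows with 63 and 39.

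**Figure D3:**
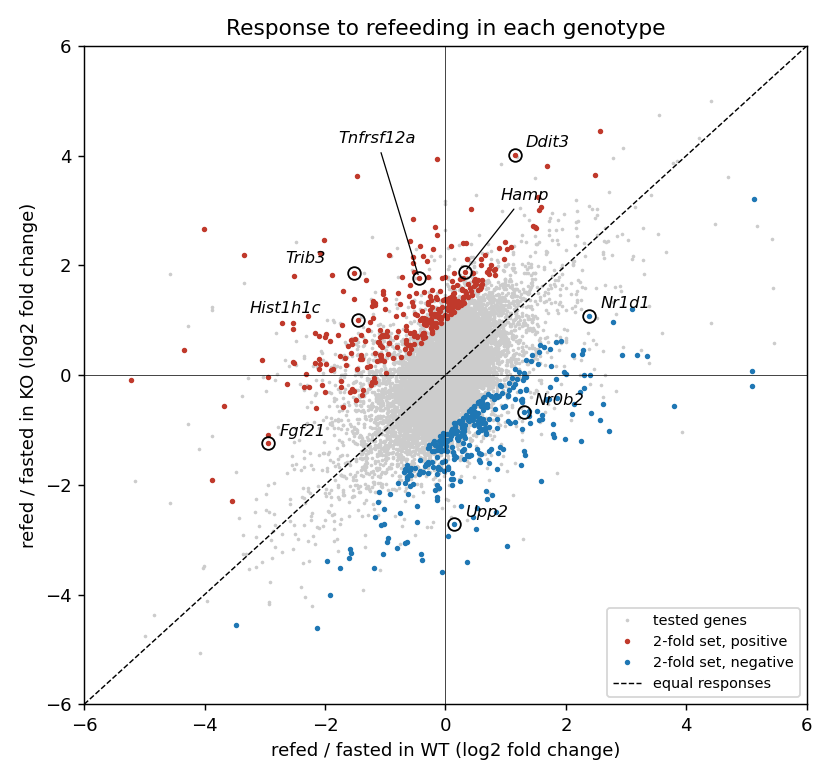
Response to refeeding in WT liver (x axis) and in KO liver (y axis), both as log2 fold change; each dot is a tested gene, colours mark the 2-fold set and the dashed line marks equal responses. Ddit3, Tnfrsf12a, Hamp, Trib3, Hist1h1c and Fgf21 lie above the line, and Nr0b2, Upp2 and Nr1d1 below it. Outside the plotted range lie 10 genes.

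Ddit3 encodes CHOP, the transcription factor of the late ER stress response. It measured 6.66 and 5.62 CPM in WT-Fasted, 15.5 and 14.8 in KO-Fasted, 16.1 and 11.3 in WT-Refed, and 251 and 241 CPM in KO-Refed liver. Both KO-Refed libraries stood far above the rest, and they were nearly equal although they disagree at many genes. Refeeding raised Ddit3 by 1.16 log2 units in WT (SE 0.21, adjusted p = 0.0379) and by 4.02 in KO liver (SE 0.22, adjusted p = 0.00154), an interaction of 2.86 (SE 0.29, unadjusted p = 1.61e-05, adjusted p = 0.116, edgeR). Without KO-Refed 1 and without KO-Refed 2 the interaction was 2.83 and 2.89, with adjusted p of 0.000874 and 0.0127, and with the length correction it was 2.50 (adjusted p = 0.226). Over all 17 alternatives its adjusted p lay between 2.19e-13 and 0.890. The gene lies on chromosome 10 from 127290774 to 127296288 (GRCm38), and its longest transcript has 969 bases.

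Tnfrsf12a, on chromosome 17, encodes the receptor of the cytokine TWEAK and is induced in injured liver. Its levels were 7.80 and 8.86 CPM in WT-Fasted, 12.0 and 14.4 in KO-Fasted, 6.91 and 5.38 in WT-Refed, and 42.0 and 47.7 CPM in KO-Refed liver. Both KO-Refed libraries lay well above the other 6. The response was -0.44 in WT (adjusted p = 0.345) and 1.77 in KO liver (adjusted p = 0.00591), and the interaction was 2.21 (SE 0.28, adjusted p = 0.388, edgeR). It was 2.29 without KO-Refed 1, 2.11 without KO-Refed 2 and 1.81 with the length correction, for a longest transcript of 984 bases. Of the 19 tested members of the TNF receptor superfamily, it was the sole member of the 2-fold set; the list's median interaction was -0.05, beside 0.03 over all tested genes.

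Hamp, on chromosome 7, encodes hepcidin, the hormone that limits iron release into blood. It measured 383 and 393 CPM in WT-Fasted, 272 and 304 in KO-Fasted, 524 and 441 in WT-Refed, and 1095 and 1026 CPM in KO-Refed liver. KO livers thus lay below WT livers in the fasted state and above them after refeeding, with no overlap in either. The response was 0.32 in WT (adjusted p = 0.409) and 1.88 in KO liver (adjusted p = 0.0039), and the interaction was 1.56 (SE 0.23, adjusted p = 0.523, edgeR). Its transcript has 410 bases, in the range of lengths that KO-Refed 2 over-represented, and the interaction was 1.17 after the length correction. It was 1.51 without KO-Refed 1 and 1.61 without KO-Refed 2. Reads of Hamp and its near-identical copy Hamp2 may be divided by the counting; Hamp2 measured 3.12 to 34.3 CPM with an interaction of 1.42 (SE 1.03, adjusted p = 0.653, edgeR). Of 25 tested genes of BMP and SMAD signalling and iron handling, Hamp was the single member of the 2-fold set, and the median was 0.06. Of other members read alongside hepcidin, Id1, Smad7 and Smad6 had interactions of 0.79, 0.01 and -0.34. Atoh8 had 0.88 (SE 0.27, unadjusted p = 0.0135, edgeR). At an unadjusted p under 0.05, 3 members of the list were positive and 2 negative, beside 4.41% and 4.03% of all tested genes.

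Hist1h1c, on chromosome 13, encodes a linker histone that, unlike most histones, is also made outside S phase. It measured 234 and 220 CPM in WT-Fasted, 152 and 153 in KO-Fasted, 92.3 and 74.0 in WT-Refed, and 322 and 290 CPM in KO-Refed liver. Here the order of the genotypes reversed with feeding: KO lay below WT in the fast and above it after refeeding. Refeeding lowered Hist1h1c in WT, by 1.45 log2 units (adjusted p = 0.0154), and raised it in KO, by 1.0 (adjusted p = 0.0153), and the interaction was 2.45 (SE 0.24, unadjusted p = 1.17e-05, adjusted p = 0.116, edgeR). Without KO-Refed 1 it was 2.37 and without KO-Refed 2 it was 2.52, and after the length correction 2.19, for a longest transcript of 1560 bases.

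Nr0b2, on chromosome 4, encodes SHP, the nuclear receptor through which bile acids restrain their own synthesis. Its levels were 11.8 and 15.5 CPM in WT-Fasted, 28.5 and 23.7 in KO-Fasted, 36.2 and 31.0 in WT-Refed, and 18.0 and 14.7 CPM in KO-Refed liver. Nr0b2 was the mirror image of Hist1h1c, higher in KO than in WT in the fast and lower after refeeding. The response was 1.30 in WT (adjusted p = 0.0336) and -0.68 in KO liver (adjusted p = 0.0824), and the interaction was -1.97 (SE 0.30, adjusted p = 0.523, edgeR). It was -2.13 and -1.84 without KO-Refed 1 and 2, and -2.29 after the length correction, for a longest transcript of 1132 bases. Cyp7a1, the rate-limiting enzyme of bile acid synthesis, measured 271 and 370 CPM in WT-Fasted, 111 and 85.3 in KO-Fasted, 461 and 468 in WT-Refed, and 303 and 252 in KO-Refed liver, an interaction of 0.97 (SE 0.31, adjusted p = 0.561, edgeR). KO-Fasted stood apart as the lowest group. Among 17 genes of bile acid synthesis, transport and FXR signalling, Nr0b2 was the one member of the 2-fold set and the median was -0.11.

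All 5 genes passed an adjusted p of 0.05 with DESeq2 (5.41e-16 to 4.78e-05), which called 0.335% of tested genes as positive and 0.3% as negative. None did with limma-trend, voom weights, the length correction or a WT or KO-Fasted library left out. By unadjusted p of the main fit the 5 genes ranked 1, 2, 3, 5 and 6. Other tests of the same libraries are therefore not independent of that fit. The highest adjusted p over the alternatives was 0.890 for Ddit3 and Hist1h1c and 0.904 for Tnfrsf12a, Hamp and Nr0b2. In all 5, every KO response of single libraries lay on 1 side of every WT response. Over all tested genes this held for 14.2% in the positive and 14.7% in the negative direction. Genes with such ranks by p would tend to show it, so it describes the same values and is no further support.

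**Figure D4:**
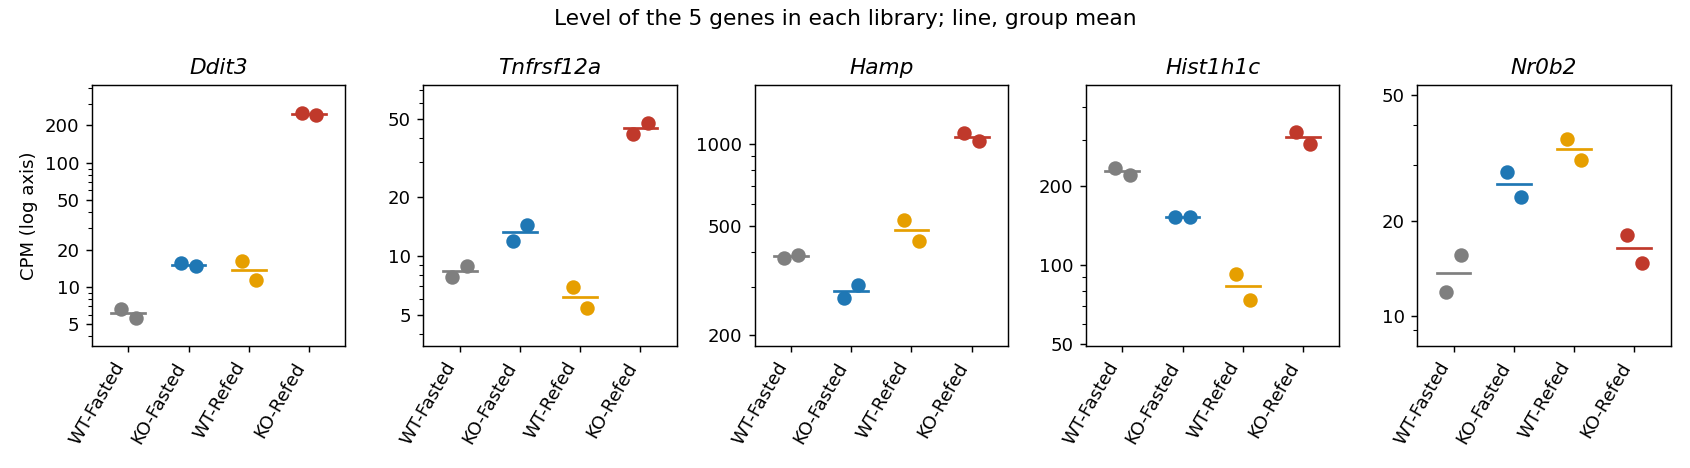
Level of each of the 5 genes in each library (y axis, CPM, log scale), with points for the 2 libraries of a group and a line at their mean. KO-Refed is the highest group for Ddit3 (251 and 241), Tnfrsf12a, Hamp and Hist1h1c, while Nr0b2 is highest in WT-Refed.

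Of the ATF4 and CHOP programme, most members had the sign of Ddit3. Of 32 tested members, 12 belonged to the positive part of the 2-fold set (37.5%, against 2.18% of all tested genes) and 0 to the negative part; 29 had an interaction above 0 (90.6%, against 52.1%), and the median was 1.08, against 0.03. In 21 members (65.6%, against 14.2% of all genes) the KO responses of single libraries lay wholly above the WT responses, and in 0 members below. With edgeR 0 members passed an adjusted p of 0.05 and 14 had an unadjusted p under 0.05, all positive; DESeq2 called 7, all positive. Without KO-Refed 1 and without KO-Refed 2 the positive 2-fold count was 8 and 16. Ddit3 itself is one of the 32, and the list was known to move in earlier results of these data.

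Atf4, which encodes the transcription factor upstream of the list, measured 118 and 124 CPM in WT-Fasted, 120 and 154 in KO-Fasted, 136 and 182 in WT-Refed, and 243 and 269 in KO-Refed liver, an interaction of 0.51 (SE 0.29, adjusted p = 0.614, edgeR). Trib3, a pseudokinase induced by CHOP, measured 18.9 and 22.1, then 45.5 and 42.4, then 6.52 and 7.85, and in KO-Refed 241 and 76.7 CPM. WT-Refed libraries lay below WT-Fasted and KO-Refed above KO-Fasted, although the KO-Refed libraries lay over 3-fold apart; the interaction was 3.37 (SE 0.66, adjusted p = 0.544, edgeR). Nupr1, a small stress-induced chromatin protein, measured 0.798 and 2.63 CPM in WT-Fasted, 12.5 and 12.5 in KO-Fasted, 2.02 and 0.998 in WT-Refed, and 99.4 and 62.7 in KO-Refed liver, an interaction of 2.87 (SE 0.76).

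The list also holds enzymes and transporters of amino acid supply. Slc3a2, the heavy chain of the large neutral amino acid carriers, measured 38.9 and 37.7, 47.1 and 54.7, 47.7 and 45.2, and 176 and 122 CPM in the same order of groups, an interaction of 1.27 (SE 0.29). Psat1 and Psph, both of serine synthesis, had interactions of 1.83 and 1.12, and KO-Refed stood apart for Psph (18.0 and 17.5 CPM, against 5.21 to 8.30 elsewhere). Asns, asparagine synthetase, was at 1.31 with an unadjusted p of 0.0512, and Cth, cystathionine gamma-lyase, at -0.39.

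Members of the same list differed in which group drove them. Fgf21, a fasting hormone of the liver, measured 14.1 and 14.6 CPM in WT-Fasted, 53.1 and 59.4 in KO-Fasted, 1.53 and 2.21 in WT-Refed, and 25.6 and 21.9 CPM in KO-Refed liver. The WT-Refed libraries stood apart as the lowest, since the response was -2.94 in WT and -1.24 in KO, and the interaction was 1.70 (SE 0.29, adjusted p = 0.544, edgeR). Chac1, which degrades glutathione, had a response of -2.52 in WT and 0.22 in KO liver, at 0.469 to 3.99 CPM throughout. Pck2, Shmt2 and Aldh1l2, mitochondrial enzymes that are ATF4 targets too, had interactions of 0.26, 0.09 and -0.07; Pck2 was at 26.8 to 37.6 CPM in all KO and 3.86 to 4.17 CPM in all WT libraries whatever the feeding.

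**Figure D5:**
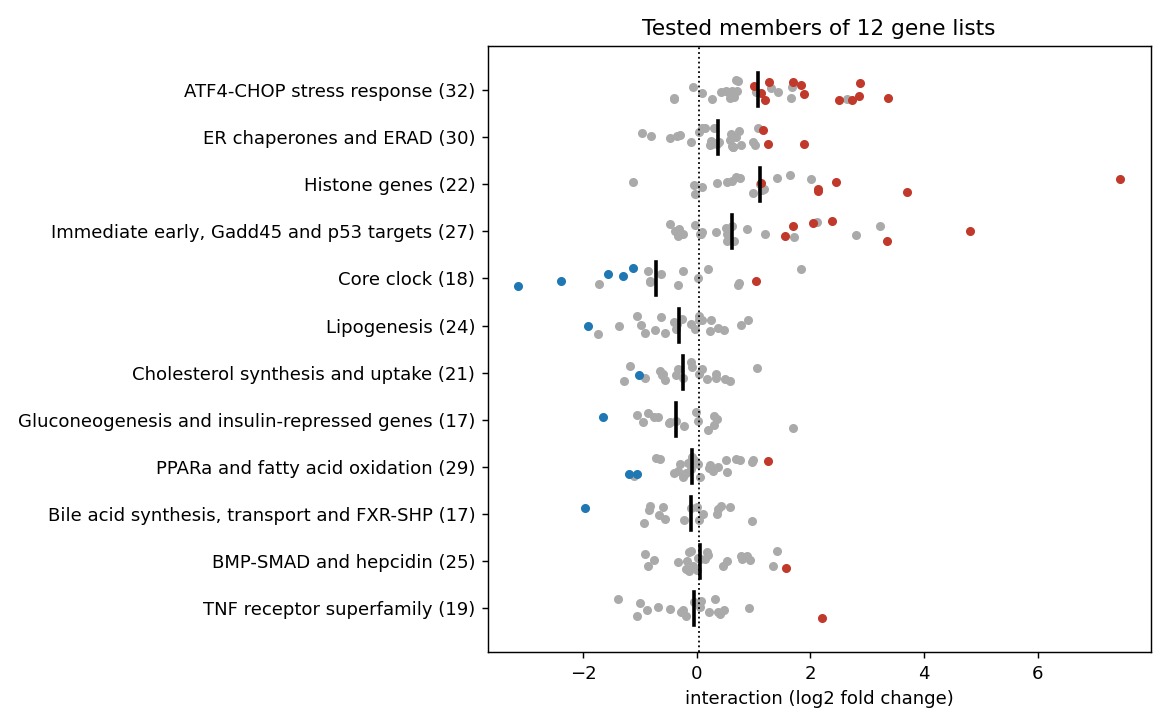
Interaction (x axis, log2 fold change) of the tested members of 12 gene lists, the number of members in brackets; red and blue points belong to the positive and negative parts of the 2-fold set, bars are list medians and the dotted line is the median of all genes, 0.03. The ATF4-CHOP list (median 1.08) and the histone list (1.12) lie to the right and the core clock list (-0.72) to the left.

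Promoter windows, from 250 bases before to 50 after the start, were read from RefSeq on GRCm38.p6, which had an entry for 27 of the 32 list members. The C/EBP-ATF response element TTGCATCA, at which ATF4 and CHOP dimers bind, was searched on both strands and occurred in 6 of them (22.2%), Atf3, Chac1, Fgf21, Nupr1, Slc7a11 and Vldlr, against 0.895% of all 32851 windows of the same length. The 250 bases before the start of 3 of these with a positive interaction are shown, with the element in capitals, together with those of Ddit3, whose window holds no copy; its capitals mark an AP-1 site, TGACTCA, found in 5.2% of windows.
Ddit3 (chr10:127290543-127290792, plus strand): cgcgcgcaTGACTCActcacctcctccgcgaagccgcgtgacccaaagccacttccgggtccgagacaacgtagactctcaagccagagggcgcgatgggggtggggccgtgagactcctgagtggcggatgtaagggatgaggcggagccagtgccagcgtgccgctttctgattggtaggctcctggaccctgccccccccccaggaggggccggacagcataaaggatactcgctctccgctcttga
Fgf21 (chr7:45615491-45615740, minus strand): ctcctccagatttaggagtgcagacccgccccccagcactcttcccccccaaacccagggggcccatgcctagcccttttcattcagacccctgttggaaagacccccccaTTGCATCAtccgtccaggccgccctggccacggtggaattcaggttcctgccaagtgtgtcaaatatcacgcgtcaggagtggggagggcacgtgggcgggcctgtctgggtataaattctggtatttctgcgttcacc
Chac1 (chr2:119350992-119351241, plus strand): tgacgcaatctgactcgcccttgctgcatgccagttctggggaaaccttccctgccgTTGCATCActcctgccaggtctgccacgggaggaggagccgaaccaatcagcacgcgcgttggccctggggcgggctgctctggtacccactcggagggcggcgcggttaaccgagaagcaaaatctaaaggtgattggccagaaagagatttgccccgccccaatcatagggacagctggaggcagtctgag
Nupr1 (chr7:126625471-126625720, minus strand): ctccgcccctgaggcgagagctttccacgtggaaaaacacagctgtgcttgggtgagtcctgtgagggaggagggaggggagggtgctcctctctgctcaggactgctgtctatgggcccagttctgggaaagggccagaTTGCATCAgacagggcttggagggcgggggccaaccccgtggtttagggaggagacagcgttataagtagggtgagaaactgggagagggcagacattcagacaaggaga
In Fgf21, Chac1 and Nupr1 the element began 139, 193 and 110 bases before the start. A match of letters is a description and not a binding site.

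ER chaperones and genes of ER-associated degradation responded to refeeding in both genotypes, with median responses of 0.86 in WT and 1.18 in KO liver. Of 30 tested members, 24 had an interaction above 0 (80%, against 52.1% of all tested genes), 3 belonged to the positive part of the 2-fold set (10%, against 2.18%) and 0 to the negative, and the median was 0.37, against 0.03. The 3 were Calr, Manf and Creld2. Calr, calreticulin, a calcium-binding chaperone, measured 899 and 922 CPM in WT-Fasted, 553 and 489 in KO-Fasted, 2075 and 1783 in WT-Refed, and 2662 and 2598 CPM in KO-Refed liver. KO lay below WT in the fast and above it after refeeding, and the interaction was 1.25 (SE 0.24, adjusted p = 0.544, edgeR). Creld2 measured 52.4 and 42.9, 41.6 and 32.7, 406 and 160, and 888 and 739 CPM, and Manf, a secreted ER stress factor, had an interaction of 1.17. Hspa5, the chaperone BiP, measured 983 and 1022, 1311 and 1022, 4891 and 2758, and 8634 and 6170 CPM in the same order, an interaction of 0.73 (SE 0.44). In both refed groups replicate 1 was higher than replicate 2, for Hspa5, Syvn1 and Sel1l alike. Without KO-Refed 1 the 2-fold counts were 3 positive and 4 negative, and without KO-Refed 2 they were 9 and 0.

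The ER stress response element, CCAAT and CCACG with 9 bases between them, on either strand, at which ATF6 and NF-Y bind, was held by the windows of 9 of the 25 list members with an entry (36%), including those of Calr, Creld2, Hspa5 and Syvn1, against 0.119% of all windows. Of the ATF4-CHOP list 0 of 27 windows held an exact match. Near matches, such as cgtgccgctttctgattgg in the printed Ddit3 window, were not counted in any list. Those of Calr and Creld2 are shown with the element in capitals.
Calr (chr8:84846932-84847181, minus strand): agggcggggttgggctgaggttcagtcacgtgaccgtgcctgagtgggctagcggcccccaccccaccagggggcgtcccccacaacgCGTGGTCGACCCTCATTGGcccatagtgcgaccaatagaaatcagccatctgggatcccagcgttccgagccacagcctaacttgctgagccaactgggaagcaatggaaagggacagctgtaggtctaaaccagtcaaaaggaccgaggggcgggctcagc
Creld2 (chr15:88819396-88819645, plus strand): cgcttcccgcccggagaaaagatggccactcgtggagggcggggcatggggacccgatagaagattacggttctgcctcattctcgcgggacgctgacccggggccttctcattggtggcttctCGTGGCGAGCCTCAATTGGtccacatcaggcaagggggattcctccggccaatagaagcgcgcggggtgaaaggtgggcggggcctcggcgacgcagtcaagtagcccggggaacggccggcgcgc
In both the element lies in reverse orientation in the printed run. Hamp is shown beside them for its BMP response element, GGCGCC, in capitals, a motif held by 11.9% of all windows and by 8 of the 19 members of the BMP list with an entry (42.1%). The share was 36% in the ER chaperone list, 31.8% in the immediate early list and 5% in the acute phase list, so the motif was not particular to the BMP list.
Hamp (chr7:30944030-30944279, minus strand): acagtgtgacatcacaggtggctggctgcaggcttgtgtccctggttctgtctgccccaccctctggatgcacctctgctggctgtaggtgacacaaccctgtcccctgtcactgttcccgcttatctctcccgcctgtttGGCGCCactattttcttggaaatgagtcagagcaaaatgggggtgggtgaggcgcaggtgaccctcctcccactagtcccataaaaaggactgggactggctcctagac

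Of 22 tested histone genes, 6 belonged to the positive part of the 2-fold set (27.3%, against 2.18% of all tested genes) and 0 to the negative, and the median was 1.12, against 0.03. Hist2h3c2, which encodes histone H3.2, measured 1.5 and 1.58 CPM in WT-Fasted, 0.782 and 0.672 in KO-Fasted, 5.18 and 4.78 in WT-Refed, and 7.62 and 13 CPM in KO-Refed liver, an interaction of 2.13 (SE 0.42). Besides these, Hist1h1d, H2afx, H1fx and Hist1h1a belonged to the set, but H1fx and Hist1h1a were at most 0.438 CPM in every library. Replicate 2 exceeded replicate 1 in KO-Refed liver for Hist2h3c2, Hist1h1d and Hist1h2bc, and not for Hist1h1c. Without KO-Refed 1 the counts were 12 positive and 1 negative, and without KO-Refed 2 they were 7 and 0. Replication-dependent histone mRNAs lack poly(A) tails, and the labels do not say how RNA was selected.

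Genes of cytosolic ribosomal proteins, which have short transcripts (median 1109 bases), had a median interaction of 0.71, with 76 of 81 above 0 (93.8%, against 52.1% of all tested genes). Only 2 belonged to the positive part of the 2-fold set, a share (2.47%) close to that of all tested genes (2.18%). Their summed level was 4065 to 6384 CPM in the fasted and WT-Refed libraries, 7306 in KO-Refed 1 and 14962 in KO-Refed 2. The positive 2-fold count was 49 without KO-Refed 1 and 0 without any other single library or with the length correction.

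Immediate early, Gadd45 and p53 target genes held 6 positive genes of the 2-fold set among 27 (22.2%, against 2.18% of all tested genes), with a median of 0.61, but the fasted WT libraries disagreed. Fos was at 0.424 CPM in WT-Fasted 1 and 25.3 in WT-Fasted 2, and Egr1 at 17.1 and 75.4; without WT-Fasted 2 the positive count was 2 and without WT-Fasted 1 it was 11. For Gadd45a, a growth arrest and DNA damage gene, the WT-Fasted libraries were close: it measured 1.92 and 2.21, 4.01 and 3.29, 6.17 and 5.85, and 39.0 and 29.9 CPM in the 4 groups in order, with KO-Refed apart and an interaction of 1.70 (SE 0.30, adjusted p = 0.544, edgeR). Jund, an AP-1 subunit, had an interaction of 1.55, and KO-Refed stood apart for it.

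Most core clock genes had a negative interaction, 12 of 18, and 6 (33.3%, against 52.1% of all tested genes) were above 0. Of the 18, 5 belonged to the negative part of the 2-fold set (27.8%, against 2.3%) and 1, Nfil3 (1.04), to the positive; 7 had a negative interaction at an unadjusted p under 0.05, with none past the adjusted threshold by edgeR, and the median was -0.72. In 8 members (44.4%, against 14.7% of all genes) the KO responses lay wholly below the WT responses. Nr1d1, the repressor REV-ERB alpha, measured 17.4 and 20.2 CPM in WT-Fasted, 21.4 and 21.6 in KO-Fasted, 83.4 and 114 in WT-Refed, and 44.4 and 46.7 CPM in KO-Refed liver. All refed libraries were above all fasted ones, the WT-Refed the most, and the interaction was -1.31 (SE 0.27, adjusted p = 0.544, edgeR). For Nr1d2, its paralogue, the values were 36.3 and 32.7, 37.0 and 49, 62.5 and 75.1, and 31.7 and 26.4 CPM, so that only WT-Refed stood apart, and the interaction was -1.56 (SE 0.29). Per3, a period gene, was at 15.9 and 31.1 CPM in WT-Refed and 3.87 to 8.50 elsewhere (interaction -2.40, SE 0.57), and Bhlhe41 was at 1.60 and 1.60 CPM there and at most 0.391 elsewhere. Tef, a PAR bZIP factor of the clock output, was the fifth, with -1.13.

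The clock genes are long, a median of 4320 bases, and the negative 2-fold count was 7 without KO-Refed 1 and 7 without KO-Refed 2, and 5 with the length correction, beside positive counts of 0 and 4 without KO-Refed 1 and 2; DESeq2 called 3, Nr1d1, Nr1d2 and Per3. In the positive limb of the clock, Npas2 had an interaction of 1.83 (SE 0.80, unadjusted p = 0.0541, edgeR), Arntl, which encodes BMAL1, had an interaction of 0.74 (SE 0.61) and Clock -0.63 (SE 0.51), and for Npas2, Arntl and Clock the KO-Refed libraries lay over 2-fold apart. Of the other repressors, Cry1 was at 0.73 and Per1 at 0.01, whereas Cry2 (SE 0.23) and Per2 (SE 0.38) were both at -0.82. The labels do not give the time of day at which livers were taken. E-boxes (CACGTG, in 7.15% of all windows) were found in the windows of 4 of the 15 clock genes with an entry (26.7%): Bhlhe41, Cry1, Per1 and Tef. The share was 35.7% in the TNF receptor list, 31.8% in the immediate early list and 15% in the lipogenesis list, so it was not particular to clock genes.

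In the lists of glucose and lipid metabolism, the field of the study, at most 3 members each belonged to the 2-fold set when all 8 libraries were used. Its negative part held 4.17% of the lipogenesis, 4.76% of the cholesterol, 5.88% of the gluconeogenesis and 6.9% of the PPARa list. Over all tested genes that share was 2.3%. The positive part held 3.45% of the PPARa list and 0% of the others, against 2.18% of all tested genes. Of 24 tested lipogenesis genes, 0 belonged to its positive and 1 to its negative part, and the median interaction was -0.31; the counts were 0 and 3 without KO-Refed 1, and 1 and 2 without KO-Refed 2. Interactions in this list ran from -1.91 to 0.89. The KO responses lay wholly above the WT responses in 4 members (16.7%, against 14.2% of all tested genes). They lay wholly below in 4 (16.7%, against 14.7%). Srebf1, the regulator of lipogenesis, had an interaction of -1.05 (SE 0.50) and Fasn, fatty acid synthase, -0.40 (SE 0.49). The 21 tested genes of cholesterol synthesis and uptake had median responses of 1.73 in WT and 1.49 in KO liver, a median interaction of -0.25, and 0 positive and 1 negative genes in the 2-fold set.

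Gluconeogenesis and insulin-repressed genes had negative median responses in both genotypes. Pck1, the gluconeogenic enzyme PEPCK, had responses of -3.04 in WT and -3.40 in KO, and G6pc, glucose-6-phosphatase, of -3.14 and -2.95. The median interaction of the 17 genes was -0.36, and Ppargc1a was the sole member in the 2-fold set. Without KO-Refed 1, 5 members were in its negative part, and without KO-Refed 2 there were 2 negative and 1 positive. In 29 PPARa target and fatty acid oxidation genes the median was -0.08, with 1 positive and 2 negative genes in the 2-fold set. Ppara itself measured 537 and 436, 325 and 361, 219 and 227, and 74.6 and 63.7 CPM in the 4 groups, with KO-Refed the lowest and apart, an interaction of -1.19 (SE 0.25, adjusted p = 0.544, edgeR). Angptl4, an inhibitor of lipoprotein lipase, had a smaller negative response in KO (-2.30) than in WT liver (-3.55): 282 and 200, 347 and 292, 20.3 and 20.8, and 60.4 and 69.2 CPM, an interaction of 1.25 (SE 0.29).

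Lists of other liver programmes gave 0 or 1 gene in each direction, beside 2.18% positive and 2.3% negative over all tested genes. The 26 genes of amino acid catabolism had none in the 2-fold set and a median of -0.05; the 23 acute phase and metallothionein genes had Mt2 as positive and Steap4 as negative. Male-high and female-high genes of liver, 22 and 18 tested, had 0 and 1 in the 2-fold set, although their medians were 0.19 and -0.62. Of markers of other cells, Krt19 and Cldn7, which mark bile ducts, belonged to the positive part of the 2-fold set at no more than 3.50 CPM. All 6 tested bile duct markers had an interaction above 0, against 52.1% of all tested genes, and the median was 1.53, against 0.03. The positive part of the 2-fold set held 33.3% of them, against 2.18% of all tested genes. Their summed level was 42.9 and 69.4 CPM in WT-Fasted and 37.4 and 33.1 in KO-Fasted liver. It was 36.3 and 32.6 CPM in WT-Refed and 53.8 and 29.9 in KO-Refed liver. S100a8 of neutrophils also belonged to the positive part; Kupffer, endothelial, stellate and hepatocyte markers had none. The Kupffer markers summed to 83.6 and 72.8 CPM in WT-Fasted, 277 and 200 in KO-Fasted, 86.4 and 86.0 in WT-Refed, and 181 and 411 in KO-Refed liver, so the KO libraries lay above the WT libraries in both states. The part of the bile duct and Kupffer markers in the results above was not tested.

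Among the remaining genes with the smallest p or the largest interaction were several driven by KO-Refed. Angptl6, a secreted angiopoietin-like factor, was at 30.6 and 30.2 CPM in KO-Refed and 4.19 to 10.1 elsewhere (interaction 1.44, SE 0.23), and Tubb6, a tubulin, at 34.8 and 33.6 and 9.43 to 12.4 (1.49, SE 0.26). Upp2, a uridine phosphorylase of liver, was at 10.1 and 8.66 CPM in KO-Refed and 41.2 to 81.7 elsewhere (-2.85, SE 0.54), and Zc3h12d, of the regnase family of RNases, at 2.30 and 2.54 and 4.94 to 10.4 (-1.94, SE 0.30). Il6ra, the receptor of interleukin 6, was at 5.65 and 2.10 CPM in KO-Refed and 25.7 to 48.6 elsewhere (-2.41, SE 0.58). In all 5 the KO-Refed libraries did not overlap any other library. The genes were chosen from those where KO-Refed stood apart, so this is a description.

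Others were driven by WT-Refed. Hsd3b2, a steroid dehydrogenase, was at 36.1 and 38.3 CPM in WT-Refed and 7.53 to 14.9 elsewhere (interaction -1.88, SE 0.33), Slc2a9, a urate transporter, at 43.1 and 47.5 and 23.8 to 33.2 (-1.19, SE 0.22), and Nlrp6, an innate sensor, at 275 and 296 and 119 to 157 (-1.09, SE 0.21). Here too the WT-Refed libraries did not overlap the others, in genes chosen from those where WT-Refed stood apart. In 2410006H16Rik, a noncoding transcript, no single group stood apart: WT-Refed was lowest at 5.73 and 5.88 CPM, WT-Fasted was at 14.7 and 15.7, and the KO libraries were at 32.4 to 45.6 (1.69, SE 0.24).

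KO-Fasted drove a smaller number. Fbf1, a protein of the base of cilia, was at 92.1 and 63.5 CPM in KO-Fasted, against 5.69 to 12.5 in all other libraries, which gave an interaction of -2.85 (SE 0.57). Ypel4 was at 2.58 and 4.43 CPM in KO-Fasted and at most 0.691 elsewhere (-4.13, SE 0.86). In both, the genotype difference of the fasted state was not seen after refeeding, where the KO-Refed and WT-Refed libraries overlapped.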

How the data were processed

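The authors deposited raw counts of reads per gene symbol, 1 file per library, without normalization. Per the submitters' processing notes cutadapt, STAR, HTSeq and DESeq2 were used with mm10, without versions, whereas the study's methods name ERANGE for the counts and limma for the test; annotation and strandedness are not given in the sources used here. Symbols were matched to GENCODE M21 (20953 of 23337), and 12968 tested genes (90.5%) had a length. Depth was 40210576 to 49117080 counts per library, and 3 counts equal 0.0611 to 0.0746 CPM, which limits low genes.

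The test was edgeR 4.0.16 in R 4.3.3: filterByExpr (minimum count 10, minimum total 15), TMM factors (0.837 to 1.22), and 1 quasi-likelihood model of 4 groups over 8 libraries (common dispersion 0.0573), with Benjamini-Hochberg adjustment over all 14328 tested genes. SE was derived from the F statistic as the size of the log2 fold change over the root of F. Alternatives used DESeq2 1.42.0 and limma 3.58.1; the steps were tested on simulated data. Same-numbered libraries correlated with r of 0.0161 to 0.179 in their deviations, so replicate numbers were not taken as pairs.

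The members and gene lists were chosen with earlier results of these data known. Named genes were to be 5 preset genes, the 12 largest and the 8 smallest-p genes in each direction among called genes with a mean of at least 1 CPM and separated responses, and called list members. As no gene was called, the same rule was applied at an unadjusted p under 0.05; other named members were chosen after their values were seen. The 2-fold set was also added after the data were seen. Promoters are RefSeq windows of GRCm38.p6, of which the 250 bases before the start are printed. Results for some genes are not reported here.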

Additional observations from a re-analysis of the deposited data

How the results depend on the processing

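The counts of called genes depended on the tool and on the KO-Refed group. The adjusted threshold was passed by 0 positive and 0 negative genes with RLE normalization, at least 10 counts in every sample, limma-trend, voom with sample quality weights (which gave the KO-Refed libraries weights of 0.165 and 0.161), the length correction and the main fit. It was passed by 2 positive genes without the filter on low counts, where KO-Refed stood apart in 1, and by 48 and 43 with DESeq2, where it stood apart in 39. Leaving out 1 library at a time gave 0 to 2249 positive and 0 to 2629 negative genes and 0 to 3585 in which KO-Refed stood apart; all 6 fits without a WT or KO-Fasted library gave 0. Without KO-Refed 1 the 3 counts were 2249, 2629 and 3585, and without KO-Refed 2 they were 67, 34 and 51. The replicate block, alone or with the length correction, left 0 positive and 0 negative genes; since the numbers do not pair the libraries, this describes only that fit.

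The 2-fold set, taken after seeing the data, held 313 positive and 329 negative genes, and 206 positive genes with voom weights. With 1 library left out it ranged from 172 to 1151 positive and from 197 to 1755 negative genes, and KO-Refed stood apart in 138 to 2191; the highest counts were those without KO-Refed 1. None of the 38 named genes changed the sign of its interaction in any of the 15 to 17 alternatives that tested it. Apart from the preset genes, they were selected for KO responses of single libraries wholly above or wholly below the WT responses. The preset genes had such responses too. The sign thus had little room to change, and its stability is a description of the selection. The cause of these differences was not tested. With 2 libraries per group, no outlying library within a group can be tested, and no batch is labelled.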
